A study of Mus musculus with 19 samples.

Results

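Wdr78 was represented by 1 probe set, 17427661, the only one of 8751 in the table whose single platform gene symbol is Wdr78, and 0 probe sets named it together with other genes. The values are log2 expression of forebrain RNA on Affymetrix Mouse Gene 2.0 ST arrays, so a difference of 1 is a doubling. The gene was chosen from results of these same arrays. The comparison behind the choice is not named, and the response to sleep deprivation was taken to be it. The sleep deprivation values of Wdr78 are therefore given as a description, with no test. Tests are given for the comparisons between genotypes and for the interaction, on the assumption that the choice did not rest on them.

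The study compared mice lacking the receptor tyrosine kinase EphA4 with wild-type littermates, all of a mixed BL6/10 strain background kept with 12 h of light and 12 h of darkness a day. WT_control held 4 undisturbed wild-type samples and WT_sleep_deprived 6 wild-type samples after 6 h of enforced wakefulness. KO_control held 4 undisturbed EphA4 knockout samples and KO_sleep_deprived 5 knockout samples after the same 6 h. The labels give no age, do not say how the knockout was made, and do not state that every array had a separate animal, so the p-values rest on the spread among samples, which may be technical.

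Wdr78, also called Dnai4, encodes an intermediate chain with WD repeats that belongs to an inner-arm dynein of the axoneme, the microtubule core of a motile cilium. Axonemal dyneins are motors that slide neighbouring microtubule doublets and so make the cilium beat, and the intermediate chains hold the heavy chain motors in place. In the forebrain, beating cilia line the ventricles on ependymal cells and move cerebrospinal fluid. Neurons and astrocytes carry a primary cilium, which has no axonemal dynein arms and does not beat in this way.

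The table of the mouse genome assembly GRCm38.p6 places Wdr78 on chromosome 4, between the protein-coding genes Insl5 and Mier1. Coordinates are not printed, because the build behind the array's probe sets is not given in the sources used here.

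In both genotypes the mean Wdr78 level was higher after sleep deprivation than in undisturbed controls. On the WT_control arrays 1 to 4 the log2 level was 7.79, 8.04, 7.89 and 7.99. The 6 WT_sleep_deprived arrays ran from 8.06 to 8.25, with a median of 8.19. In wild type the groups did not overlap, although the gap between the highest control and the lowest sleep-deprived array was 0.017 on the log2 scale. How many of all probe sets separate in this way was not counted, so the separation is only a description. On the KO_control arrays 1 to 4 the level was 7.85, 7.80, 7.94 and 7.93. On the KO_sleep_deprived arrays 1 to 5 it was 8.14, 8.14, 8.32, 8.19 and 7.89. In the knockout, 4 of the 5 sleep-deprived arrays lay above every control, and replicate 5 lay among the controls.

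**Figure D1:**
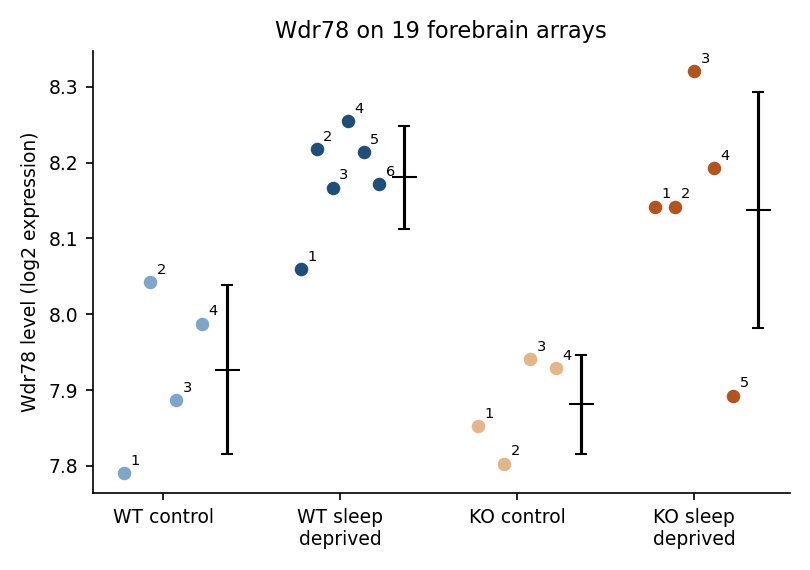
Wdr78 log2 expression (y axis) on each of the 19 arrays, by group (x axis). Points are arrays with their replicate numbers, and black bars are the group mean ± SD. The 6 sleep-deprived wild-type arrays sit between 8.06 and 8.25, above all wild-type controls, and KO_sleep_deprived replicate 5, at 7.89, sits among the knockout controls.

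The group means were 7.88 ± 0.07 (SD, n = 4) in KO_control, 7.93 ± 0.11 (SD, n = 4) in WT_control, 8.14 ± 0.16 (SD, n = 5) in KO_sleep_deprived and 8.18 ± 0.07 (SD, n = 6) in WT_sleep_deprived. In this order the neighbours at each end, KO_control and WT_control at the low end and KO_sleep_deprived and WT_sleep_deprived at the high end, differed by less than their SDs. The middle step, from WT_control to KO_sleep_deprived, was larger than the SD of either. That step divides control from sleep-deprived groups, the response taken as the reason for the choice, so it is only a description. The spread was widest in KO_sleep_deprived.

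Averaged over both genotypes, the sleep-deprived mean was 1.19-fold above the control mean, a log2 change of 0.26 ± 0.06 (SE). The change was 0.25 ± 0.08 (SE) in wild type and 0.26 ± 0.08 (SE) in the knockout. In limma's test over all probe sets, 23 of 8751 (0.263%) passed an adjusted p of 0.05 for the averaged effect. Within the knockout the share was also 0.263%, and within wild type it was 0%, with 683 probe sets at an unadjusted p under 0.05. Nothing about Wdr78 is read from these shares. The median log2 change of all probe sets was 0.015 for the averaged effect, and the central 95% of them lay between -0.19 and 0.22. Differences between the 4 group means made up 65.0% of the sum of squares of Wdr78 over the 19 arrays, and differences between arrays of one group the remaining 35.0%. The sleep deprivation response, taken as the reason the gene was chosen, enters the former share. Nothing about Wdr78 is read from that share, or from its change beside the central 95% of all probe sets. Its residual SD within groups was 0.106, against a median of 0.165 over all probe sets. The choice of the gene can favour a small spread, and the median is not matched for level, so nothing is read from this either. In a piece of forebrain, a higher level can come from more cells that express the gene or from more RNA per cell, and these cannot be told apart here.

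The mean Wdr78 level in the knockout was slightly below that in wild type in both conditions, by less than the spread between arrays, and no genotype comparison passed. In controls the log2 difference, knockout minus wild type, was -0.05 ± 0.08 (SE), with a 95% interval from -0.22 to 0.13 (limma, adjusted p = 0.95). An exact permutation test over the 70 splits of the 8 control arrays gave a two-sided p = 0.54. After sleep deprivation the difference was -0.04 ± 0.07 (SE), with an interval from -0.19 to 0.11 (limma, adjusted p = 0.84). The exact permutation test over 462 splits gave a two-sided p = 0.60. Averaged over conditions it was -0.04 ± 0.06 (SE), with an interval from -0.16 to 0.07 (limma, adjusted p = 0.88). The exact permutation test within conditions, over 32340 combinations of splits, gave a two-sided p = 0.36. Adjusted over these 3 exact tests, each p was 0.60.

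Of all probe sets, 0% passed in controls, with 476 at an unadjusted p under 0.05. After sleep deprivation 1.68% passed, and averaged over conditions 0.0114% passed. The sign of the difference after sleep deprivation rested on KO_sleep_deprived replicate 5. Without that array it was 0.019 ± 0.066 (SE), with the knockout slightly higher.

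The interaction asked whether the response of Wdr78 to sleep deprivation differed between the genotypes. The change in the knockout minus that in wild type was 0.0032 ± 0.11 (SE) on the log2 scale (limma, adjusted p = 0.99). Its 95% interval ran from -0.23 to 0.23, which holds differences between the genotypes somewhat smaller than the averaged response itself, 0.26, and leaves out one of that size. The interaction passed for 0.0686% of all probe sets. Its sign was negative with quantile normalization (-0.035) and in 7 of the 19 fits without 1 array.

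**Figure D2:**
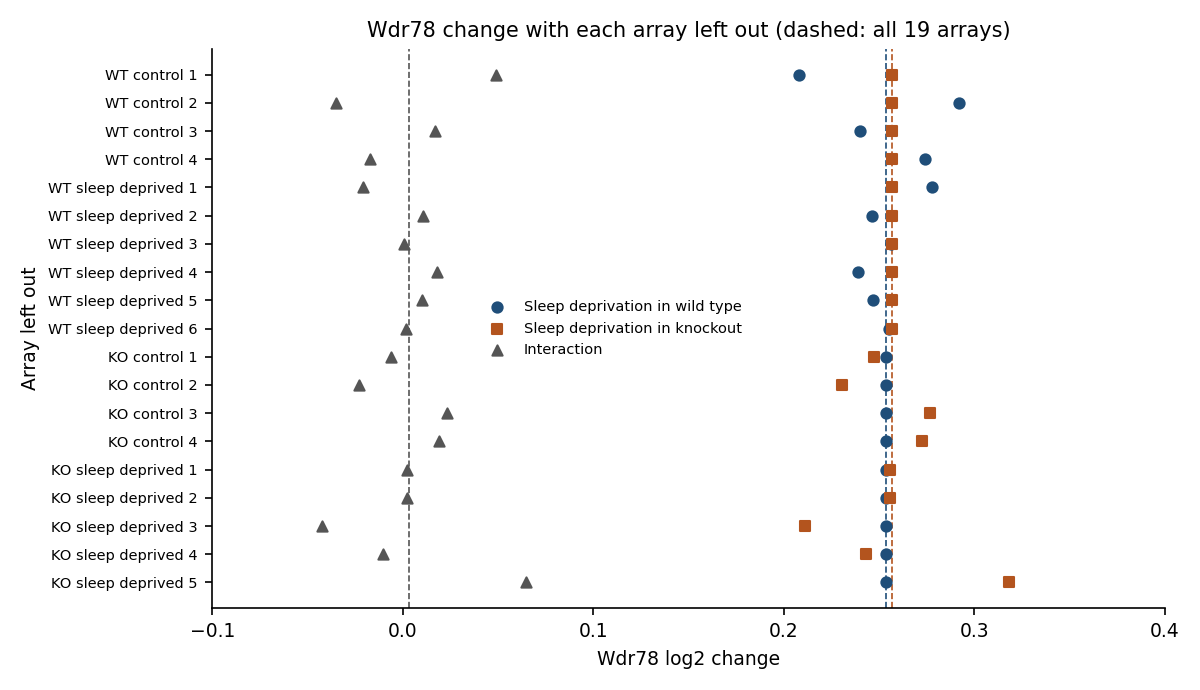
Wdr78 log2 change (x axis) refitted with each of the 19 arrays left out in turn (y axis), for sleep deprivation in wild type, sleep deprivation in the knockout and the interaction, the difference between these. Dashed lines are the values with all 19 arrays. The wild-type change ran from 0.21 to 0.29, the knockout change from 0.21 to 0.32, and the interaction from -0.042 to 0.065.

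KO_sleep_deprived replicate 5 differed from the rest of its group in more than Wdr78. It had the highest median of the 19 arrays, 6.07 against 5.90 to 6.04 on the others. It also had the lowest weight that limma's arrayWeights assigned, 0.56 in a range that reached 1.44. KO_control replicate 2, at 0.57, and WT_sleep_deprived replicate 1, at 0.62, had weights nearly as low. Without KO_sleep_deprived replicate 5 the sleep deprivation change of Wdr78 in the knockout was 0.32 ± 0.07 (SE), and averaged over genotypes 0.29 ± 0.05 (SE). Its part in the results was not tested beyond these values.

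With each array's median subtracted, this array was the lowest of all for Wdr78, 1.82 above its median, against 1.86 to 2.00 in KO_control. On the same scale 5 of the 6 WT_sleep_deprived arrays lay above every WT_control array, and replicate 1 of WT_sleep_deprived, at 2.02, lay within the control range of 1.85 to 2.13. The averaged log2 change was then 0.24 ± 0.06 (SE), and 0.24 ± 0.06 (SE) with quantile normalization, which kept the wild-type groups apart. The gap between the wild-type groups was thus open on the deposited and the quantile-normalized scale and closed on the median-centred one.

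Within groups, Wdr78 and the array median went in opposite directions. The correlation of their deviations from the group means over the 19 arrays was r = -0.47 (Spearman's rank correlation -0.30), against a median of 0.18 for all probe sets. Without the 2 arrays farthest out in array median, KO_sleep_deprived replicate 5 and WT_sleep_deprived replicate 1, r was -0.06, so the relation rests on those arrays. It is given as a description.

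**Figure D3:**
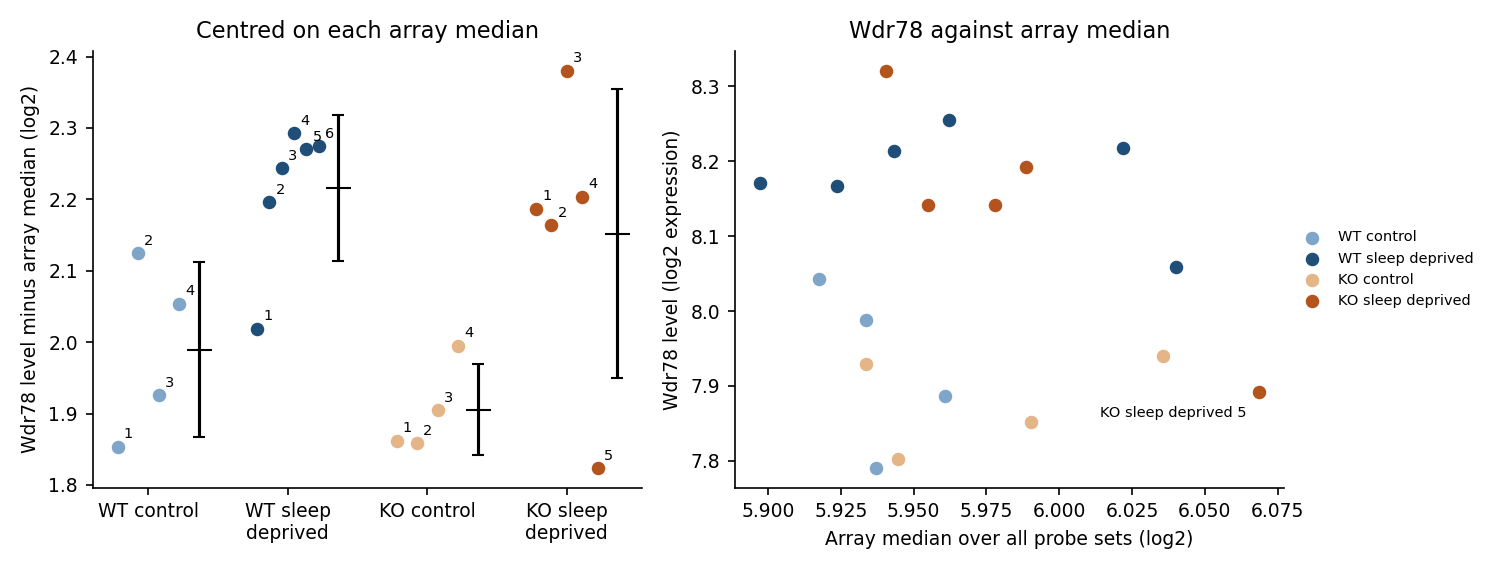
Left, Wdr78 level minus the array median (y axis, log2) by group, with replicate numbers and the group mean ± SD. Right, Wdr78 log2 expression (y axis) against the median log2 value of each array over all probe sets (x axis), coloured by group. After centring, KO_sleep_deprived replicate 5 is the lowest of the 19 arrays at 1.82, and it is also the array with the highest median, 6.07.

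Little of the rest of the ciliary machinery could be read beside Wdr78. Of 247 symbols listed for axonemal dyneins, their assembly, the central pair and radial spokes, motile ciliogenesis, intraflagellar transport and basal bodies, and cytoplasmic dynein, older names included, 5 genes were measured under a symbol of their own. A further 11 symbols were present only on probe sets with several symbols, which were not read. No other axonemal dynein subunit, no regulator of motile ciliogenesis, no cytoplasmic dynein subunit and no other gene named Wdr with a number was measured under its own symbol. Since the series is described as incomplete, this says nothing of what the array holds.

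The 5 genes were Dnaaf3 and Rsph3a, which belong to motile cilia, and Dync2h1, Bbs12 and Tmem67, which serve cilia in general. In none of the 7 comparisons did any of the 5 pass an adjusted p of 0.05 over the whole table (limma, sleep deprivation averaged and in each genotype, genotype averaged and in each condition, and the interaction). At an unadjusted p under 0.05 there was 1 gene in each of 5 of these comparisons and 0 for genotype averaged over conditions and in controls. Over all 8751 probe sets these counts were 683 to 1345 in the former comparisons and 764 and 476 in the latter, so 1 of 5 is no result about these genes. For the averaged effect of sleep deprivation, 4 of the 5 were above 0, and their median log2 change, 0.015, equalled the median of all probe sets to this precision.

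Dnaaf3 encodes a factor that preassembles dynein arms in the cytoplasm before they enter the cilium. Its mean log2 level was 7.51 ± 0.10 (SD, n = 4) in WT_control, 7.57 ± 0.16 (SD, n = 6) in WT_sleep_deprived, 7.60 ± 0.11 (SD, n = 4) in KO_control and 7.58 ± 0.20 (SD, n = 5) in KO_sleep_deprived. The groups overlapped, and the averaged sleep deprivation change was 0.015 ± 0.071 (SE; limma, adjusted p = 0.99).

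Rsph3a encodes a radial spoke protein, part of the link between the outer doublets and the central pair. Its averaged change was -0.08 ± 0.07 (SE; limma, adjusted p = 0.86), and its lowest group mean was 7.21 ± 0.09 (SD, n = 5) in KO_sleep_deprived against 7.34 to 7.37 in the other 3 groups.

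Dync2h1 encodes the heavy chain of the dynein that carries intraflagellar transport back from the ciliary tip. Its averaged change was 0.012 ± 0.048 (SE; limma, adjusted p = 0.98). Replicate 5 of KO_sleep_deprived was the lowest of its group, as for Wdr78, at 8.20 against 8.44 to 8.51 on the other 4 arrays. The same array was also the lowest of its group for Bbs12, at 7.12, but the highest for Dnaaf3, at 7.85.

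Bbs12, which encodes a chaperonin-like protein needed to assemble the BBSome, a coat complex that sorts ciliary membrane proteins, had the largest averaged change of the 5. It was 0.15 ± 0.07 (SE; limma, adjusted p = 0.56), with 0.10 ± 0.09 (SE) in wild type and 0.21 ± 0.10 (SE) in the knockout. The 5 KO_sleep_deprived arrays, 7.12 to 7.41, lay above the 4 KO_control arrays, at most 7.08, while the wild-type groups overlapped. How common such a separation is among all probe sets was not counted, so nothing is read from it. The knockout change did not pass (limma, adjusted p = 0.41).

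Tmem67, which encodes the transition zone protein meckelin, was dim, with group means from 4.83 to 5.03, below the lowest array median, 5.90. Its sleep deprivation changes were of opposite sign in the genotypes. They were 0.20 ± 0.09 (SE; limma, adjusted p = 0.62) in wild type and -0.11 ± 0.09 (SE; limma, adjusted p = 0.67) in the knockout. The difference between them was -0.31 ± 0.12 (SE) and did not pass (limma, adjusted p = 0.35).

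**Figure D4:**
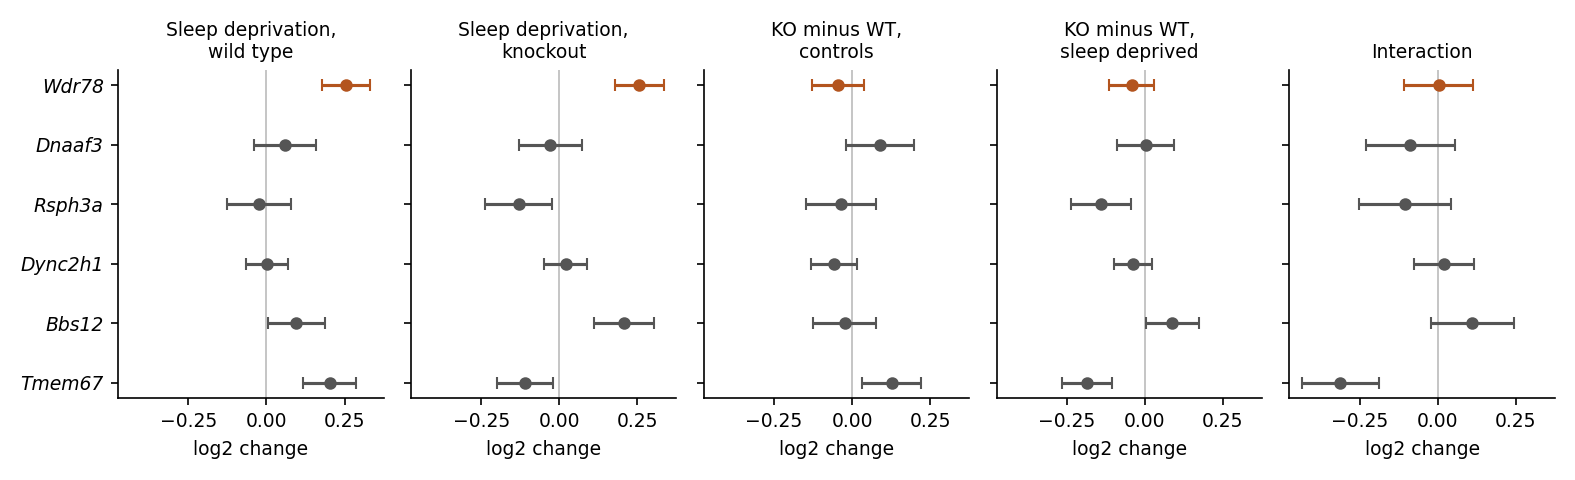
Log2 change (x axis) of Wdr78 and of the 5 other cilia genes measured under their own symbol (rows), in 5 comparisons (panels). Points are values from the fit on all 19 arrays and bars are ± SE. Wdr78 is at 0.25 and 0.26 in the first and second panels and near 0 in the others, and of the other genes only Bbs12 is positive by more than its SE in both of these panels.

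The cells that carry motile cilia could not be followed with these values. None of the listed markers of ependymal cells (27 symbols) or choroid plexus epithelium (19 symbols) was measured under its own symbol, and of 115 marker symbols of 9 cell classes 1 was. That gene, Slc32a1, which encodes the vesicular GABA transporter of inhibitory neurons, had group means from 7.31 to 7.33 and an averaged sleep deprivation change of -0.0057 ± 0.055 (SE; limma, adjusted p = 0.99). The part of ependymal or choroid plexus tissue in the Wdr78 values was not tested, and with 1 marker the label of forebrain could not be checked. Epha4 was not among the genes read, and the genotype labels were not checked either.

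There were 775 genes with 1 symbol, Wdr78 among them, predicted genes, clones and small RNAs aside. Those most like Wdr78 over all 19 arrays were Hacd2 (r = 0.77), Pdzd2 (r = 0.76), Ormdl2 (r = 0.74), Arhgap26 (r = 0.71) and Gpd1 (r = 0.71). Hacd2 encodes a dehydratase of very long chain fatty acid elongation, Ormdl2 a regulator of sphingolipid synthesis, and Gpd1 the cytosolic glycerol-3-phosphate dehydrogenase. Pdzd2 encodes a protein with PDZ domains. This likeness includes the shared difference between control and sleep-deprived arrays. The averaged changes of these genes lay between 0.17 for Ormdl2 and 0.24 for Pdzd2. Genes picked in this way tend to share the change of Wdr78, so nothing is read from it. With the group means removed, r ran from 0.30 for Pdzd2 to 0.67 for Ormdl2. Without the 2 arrays farthest out for Wdr78 as well, it ran from -0.007 for Pdzd2 to 0.44 for Hacd2.

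Ormdl2 shared the low value of KO_sleep_deprived replicate 5, which was at 7.88 against 8.14 to 8.30 on the other 4 arrays of that group. Its 6 WT_sleep_deprived arrays, 8.21 to 8.45, lay above the 4 WT_control arrays, 7.81 to 8.15, and its knockout groups overlapped. The share of all probe sets with such a separation was not counted, and Ormdl2 was named for its likeness to Wdr78.

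With the group means removed, so that only the variation between arrays of one group counts, other genes came first. The highest correlations with Wdr78 were those of Rpl27a (r = 0.79), a ribosomal protein, Bace1 (r = 0.74), the beta-secretase, Gcn1 (r = 0.73), an activator of the kinase Gcn2, Ube2n (r = 0.71), a ubiquitin-conjugating enzyme, and Kpnb1 (r = 0.68), an importin. Without the 2 arrays farthest out for Wdr78, KO_sleep_deprived replicates 3 and 5, they were 0.51, 0.71, 0.66, 0.51 and 0.45 in the same order. With each array centred on its median they were 0.81 to 0.87, a step that takes the same number from every gene of an array. The most opposite were Igkv5-43, an immunoglobulin kappa segment (r = -0.76), Csprs (r = -0.73), Acsl6, a long-chain acyl-CoA synthetase (r = -0.71), Olfr538, an olfactory receptor (r = -0.69), and Arhgap27 (r = -0.69). Without the same 2 arrays these were -0.42, -0.71, -0.57, -0.43 and -0.55 in the same order, and with median centring that of Acsl6 was -0.28 and the others -0.65 to -0.78. Over all genes compared with Wdr78 the central 95% of these correlations ran from -0.57 to 0.60. The points share arrays and their scaling, and the values are descriptions.

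Bace1, which stayed high in likeness without the extreme arrays, had an averaged sleep deprivation change of opposite sign to that of Wdr78. It was -0.11 and did not pass (limma, adjusted p = 0.55), and over all 19 arrays its correlation with Wdr78 was -0.11. The 5 genes most alike within groups had averaged changes between -0.11 and 0.08, and none of these passed.

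Insl5 and Mier1, on either side of Wdr78, were not measured under their own symbols. The nearest genes measured under a single symbol on its chromosome were Rps6, Ifna1 and Ifna6 on one side and Yipf1, 4930407G08Rik and Tmem69 on the other. No limit was set on their distance from Wdr78, so they need not lie close to it and do not describe its locus. None of the 6 passed in any of the 7 comparisons. The largest averaged sleep deprivation change among them was that of Tmem69, 0.17 ± 0.09 (SE; limma, adjusted p = 0.66). Tmem69 was dim, with group means from 3.71 to 4.05, below the lowest array median, 5.90.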

How the data were processed

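The authors' deposited table holds log2 expression, 1 value per probe set and array. The submitters' processing notes name RMA, oligo and limma without versions or order. A table of 8751 probe sets on 19 arrays was read, with values from 2.18 to 14.2 and correlations between arrays from 0.981 to 0.993. There is no read depth on arrays, so precision is limited by how many there are. Titles gave the groups. Wdr78 was found through the platform annotation, in which 1308 probe sets had 1 symbol, 1178 several and 6265 none.

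The 4 group means were fitted with limma 3.58.1 in R 4.3.3 on all 19 arrays, without covariates, and p-values were adjusted by Benjamini-Hochberg over all 8751 rows (threshold 0.05). The limma fit was tested on simulated data. Exact permutation tests of Wdr78 were two-sided. The named genes are Wdr78, the measured members of the cilia and marker lists, and the 3 nearest measured genes on each side. They also include the 5 genes most like and the 5 most unlike Wdr78 within groups, and the 5 most like it over all arrays. The gene and the lists were chosen with earlier results of these data known. A gene on more than 1 probe set was read from its brightest. Alternatives were quantile normalization, median centring, array weights, leaving out the dimmest 40% of rows, rows with 1 symbol, the groups compared alone, the replicate number as a block, and leaving out each array. The labels state no shared litter or day for a replicate number. Plots used matplotlib 3.10.9 in Python 3.11.15.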

Additional observations from a re-analysis of the deposited data

Results flagged for a closer look

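An array far from the rest of its group was looked for in Wdr78 and the other named genes with Dixon's test, over 112 pairs of gene and group. For Wdr78 no array was past the 95% critical value in any of the 4 groups. In KO_sleep_deprived the gap below replicate 5 was 0.58 of the group's range, against a critical value of 0.71. In 4 pairs an array was past it, and chance flags about 1 in 20 groups. KO_sleep_deprived replicate 5 was far from its group in 3 of these. It was low for Dync2h1, at 8.20 against a nearest value of 8.44, low for Gcn1, at 8.32 against 8.44, and high for Csprs, at 6.70 against 6.34. WT_control replicate 3 was low for Bbs12, at 6.88 against 7.13. Gcn1 and Csprs were named for their likeness to Wdr78 within groups, to which KO_sleep_deprived replicate 5 contributes.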

How the results depend on the processing

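The sleep deprivation changes of Wdr78 kept their sign and moved by less than the residual SD in every alternative run, from 0.23 to 0.29 averaged over genotypes, 0.21 to 0.29 in wild type and 0.21 to 0.32 in the knockout on leaving out single arrays. The genotype difference after sleep deprivation ran from -0.088 to 0.019 on leaving out single arrays, and turned positive without KO_sleep_deprived replicate 5. The averaged difference ran from -0.067 to -0.013 and that in controls from -0.091 to -0.0072. The interaction ran from -0.042 to 0.065 and was -0.035 with quantile normalization. No genotype comparison or interaction of Wdr78 passed in any alternative (adjusted p from 0.62 upward). With the replicate block, which takes WT_sleep_deprived replicate 6 out of the fit because no other array has its number, the averaged sleep deprivation change was 0.28 and the interaction 0.0014. Arrays of the same number did not deviate together (0 of 25 pairs over a correlation of 0.1, highest 0.078). These correlations rest on deviations from the means of small groups. They cannot show whether such arrays shared a litter or day, and the labels state none.

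The count of probe sets past the threshold was 23 for averaged sleep deprivation, and 14 with median centring, 37 with array weights, 39 without dim rows and 9 with the block. In the knockout it was 23, and 43 with array weights, 35 without dim rows, 10 with the block and 12 with the groups compared alone. In wild type it was 0, and 2 without dim rows and 1 with the block. For genotype after sleep deprivation it was 147, and 70 with the block and 36 with the groups compared alone. Averaged over conditions it was 1, and 0 without dim rows and 2 with the block. On leaving out single arrays these counts ran from 14 to 29, 6 to 33, 0 to 3, 67 to 298 and 0 to 3, and that of the interaction, 6, from 2 to 41. The cilia genes past the threshold stayed at 0 in every alternative in which they were counted. They were not counted in the fit on rows with 1 symbol, and the dim filter removed Tmem67. The causes of these shifts were not tested.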
